A study of Mus musculus with 12 samples.

Results

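The B cell and plasma cell genes of the mouse thymus were followed from 2 weeks (2W) through 6 weeks (6W) to 3 months (3M) of age. The set held 9 of the 23215 genes in the mRNA table, namely Ighm, Igha, Jchain, Mzb1, Xbp1, Ms4a1, Cd79a, Cd79b and Pax5, and each gene was the sum of its transcript rows by symbol. These genes were chosen by their levels in these same libraries, so their values are given as a description and carry no test. The thymuses came from untreated wild type male C57BL/6 mice, and the ages were chosen to cover the growth of the organ (2W to 6W) and the start of its decline (6W to 3M). Each age had 2 biological replicates, with a ribosomal RNA depleted library and a small RNA library for each. Whole thymus was sequenced, so fewer cells of a type and less RNA per cell cannot be told apart in any value below.

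The thymus is built to raise T cells, yet a small population of B cells lives in its medulla, where these cells present self antigen to developing thymocytes. Ms4a1 (CD20), the signalling pair Cd79a and Cd79b of the B cell receptor, and the transcription factor Pax5 mark B cells before they secrete antibody. A plasma cell shuts Pax5 down, turns on Xbp1 to enlarge its secretory pathway, and exports immunoglobulin. Ighm and Igha encode the constant regions of the IgM and IgA heavy chains, Jchain encodes the chain that links IgM and IgA into polymers, and Mzb1 encodes an endoplasmic reticulum protein that helps their assembly.

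The long RNA libraries held between 16519753 and 22553481 estimated counts. The organ was thymus by its own markers, since Rag1, the recombinase of developing lymphocytes, ranged from 7479 to 11060 CPM (counts per 1000000 counts, scaled by the trimmed mean of M values, TMM). B cells were a small part of the signal. The lowest count of a B cell member in any library was 46, for Cd79a in 2W replicate 2. Library 3M replicate 2 stood apart in red blood cell genes, whose summed level was 1645 CPM against 300.6 to 623 CPM in the other libraries.

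Measured per transcript length, the members spanned a wide range of abundance. In FPKM, the length-scaled unit of the table, Ighm was the highest at every age, with 200.2 ± 32.8 at 2W and 382 ± 5.50 at 3M (SD, n = 2). At 2W the order below Ighm was Xbp1 at 59.5 ± 7.96, Cd79b at 15.8 ± 2.52, Mzb1 at 11.7 ± 0.636, Igha at 8.60 ± 2.30, the J chain gene with both of its rows described below at 4.36 ± 0.813, Cd79a at 2.34 ± 0.856, Ms4a1 at 2.01 ± 0.509 and Pax5 at 1.05 ± 0.290 FPKM. At 3M the IgA constant region had moved up that order, to 122 ± 3.05 FPKM, above Xbp1 at 80.2 ± 6.77 FPKM. The J chain gene, summed in the same way, was at 90.6 ± 34.9 FPKM at 3M and overlapped Xbp1. The 4 B cell members were low at 3M, from 1.35 ± 0.424 FPKM for Pax5 to 14.4 ± 3.01 FPKM for Cd79b. Cd79a and Ms4a1, neighbours in the order, overlapped between their libraries at 2W and 3M but not at 6W.

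The immunoglobulin heavy chain members were higher at each later age. Ighm was at 388 and 307 CPM in the 2W replicates, 564 and 509 CPM at 6W, and 636 and 604 CPM at 3M. Its ages did not overlap, and the log2 fold change (log2FC) was 0.63 (standard error, SE, 0.14) for 6W against 2W and 0.21 (SE 0.14) for 3M against 6W, so the later step was not much larger than its own error. Igha had the widest change of the members counted under their own symbol. Its level was 16.7 and 11.8 CPM at 2W, 84.5 and 83.7 CPM at 6W, and 143 and 144 CPM at 3M. The log2FC of Igha was 2.56 (SE 0.17) for 6W against 2W, 0.77 (0.16) for 3M against 6W and 3.33 (0.18) for 3M against 2W. Replicates of Igha lay within 1 CPM of each other at 6W and 3M, far less than the gap between ages.

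Jchain needed care because its reads were spread over 2 rows. Under the symbol Jchain, the counts were 122 and 0 at 2W, 268 and 0 at 6W, and 270 and 270 at 3M. The libraries listed at 0 were both replicate 2. An assembled transcript under the older symbol Igj, singled out after its values were seen, carries the RefSeq protein of Jchain in its description. Its counts were 0 and 96 at 2W, 1100 and 1177 at 6W, and 2623 and 1873 at 3M, so a 0 under either symbol alone is no measure of the gene. With both rows summed, the J chain gene was at 7.64 and 5.82 CPM at 2W, 65.7 and 51.5 CPM at 6W, and 172 and 95.2 CPM at 3M. The summed log2FC was 3.12 (SE 0.33) for 6W against 2W, 1.19 (0.29) for 3M against 6W and 4.31 (0.34) for 3M against 2W. The summed level was thus higher in every library of each later age.

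The other secretory members did not share this course. Mzb1 was at 11.2 and 12.2 CPM at 2W, 4.95 and 5.25 CPM at 6W, and 7.62 and 5.51 CPM at 3M. It was the member that stood highest in the youngest thymus, with a log2FC of -1.20 (SE 0.21) for 6W against 2W and -0.84 (0.21) for 3M against 2W. Mzb1 is also known from plasmacytoid dendritic cells. The summed level of 7 marker genes of that cell type was 756 and 784 CPM at 2W, 626 and 648 CPM at 6W, and 601 and 556 CPM at 3M. Most of this sum was 1 gene, Ccr9, which thymocytes also express, at 662 and 688 CPM at 2W and 493 and 465 CPM at 3M. At 6W against 2W, 4 of the 6 markers tested had a positive log2FC, with a median of 0.53. Ccr9 fell from 2W to 3M and Bst2 rose, whereas the defining marker Siglech stayed between 2.56 and 7.40 CPM, and the part of these cells in the Mzb1 values was not tested. Xbp1, which many secretory and immune cells use, was at 125 and 148 CPM at 2W, 144 and 141 CPM at 6W, and 169 and 180 CPM at 3M. Its 2W and 6W libraries overlapped, and its log2FC was 0.36 (SE 0.12) for 3M against 2W.

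The B cell members had their highest mean at 6W. Cd79a was at 4.76 and 2.79 CPM at 2W, 8.55 and 8.10 CPM at 6W, and 4.23 and 5.55 CPM at 3M. Both 6W libraries of Cd79a lay above all others, with a log2FC of 1.14 (SE 0.30) for 6W against 2W and -0.76 (0.29) for 3M against 6W. Its partner Cd79b was at 23.7 and 19.3 CPM at 2W, 25.7 and 23.2 CPM at 6W, and 16.1 and 21.0 CPM at 3M. The 2W and 6W libraries of Cd79b overlapped, and its log2FC of 0.18 (SE 0.18) for that step was no larger than its error. Ms4a1 was at 5.64 and 8.07 CPM at 2W, 12.2 and 10.3 CPM at 6W, and 13.3 and 7.51 CPM at 3M. Pax5 was at 7.33 and 6.49 CPM at 2W, 13.1 and 9.19 CPM at 6W, and 11.3 and 6.53 CPM at 3M. For Ms4a1 and Pax5 the 6W libraries were above those of 2W, by a log2FC of 0.71 (SE 0.32) and 0.69 (0.31), while at 3M replicate 1 was close to 6W and replicate 2 was close to 2W. Without 3M replicate 1 the log2FC of Pax5 for 3M against 2W was -0.06, compared with 0.36 with all libraries, and without 3M replicate 2 that of Ms4a1 for 3M against 6W was 0.19 in place of -0.12.

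**Figure D1:**
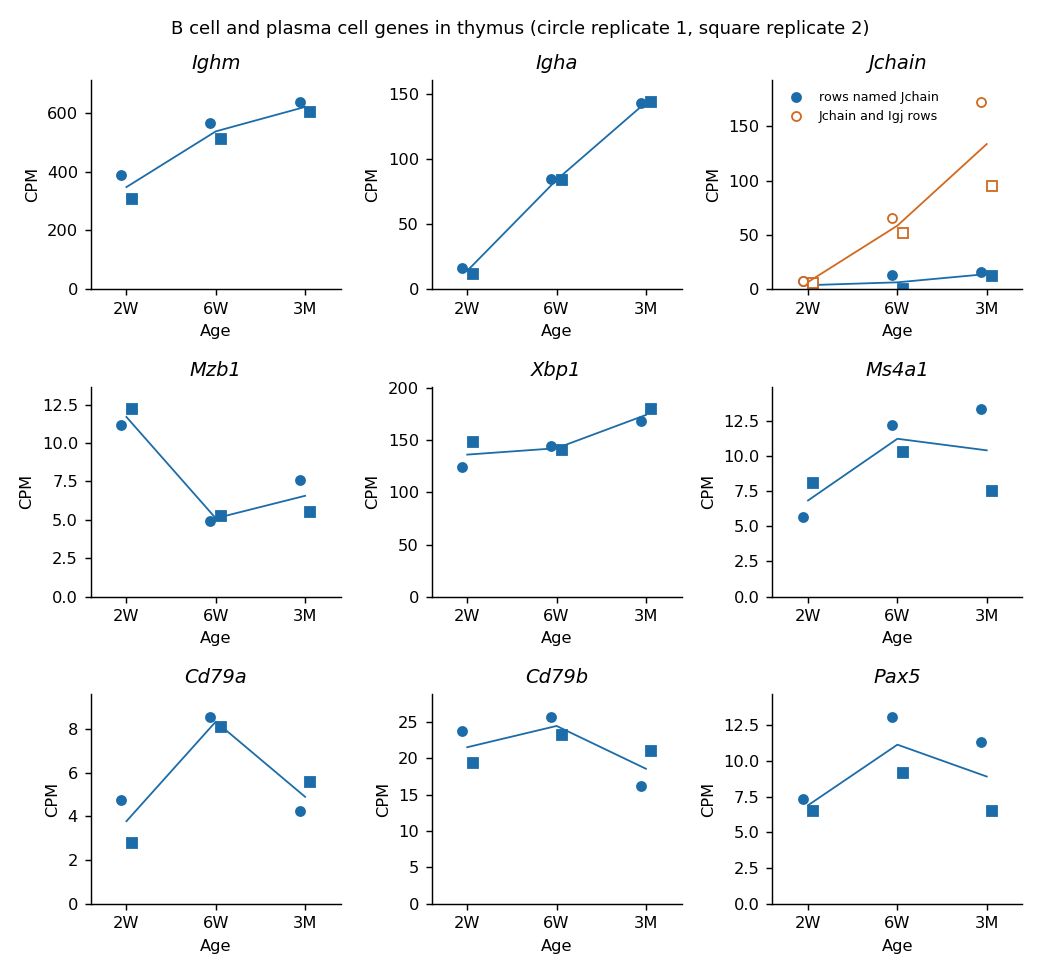
Level of each member gene (CPM, linear axes from 0) at 2W, 6W and 3M, with circles for replicate 1, squares for replicate 2 and lines joining the means of 2 libraries. Igha climbs from 16.7 and 11.8 CPM at 2W to 143 and 144 CPM at 3M, Mzb1 is highest at 2W, and Cd79a peaks at 6W. The open orange points of the Jchain panel add the rows named Igj.

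Over all members, the libraries of the compared ages did not overlap for 6 of 9 genes in 6W against 2W, beside 57.7% of all genes tested, for 6 of 9 in 3M against 6W, beside 49%, and for 5 of 9 in 3M against 2W, beside 51.6%. With 2 libraries per age such separation is common, and nothing is read from these counts. The 3 comparisons share libraries, so they do not stand as separate evidence.

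The heavy chain genes were each annotated with a shorter and a longer transcript, and the estimated counts of these transcripts took different courses. For Igha the shorter transcript (effective length 1181 nucleotides) held 148 and 98.9 counts at 2W, 1694 and 1810 at 6W, and 2362 and 3165 at 3M. The longer Igha transcript (2721 nucleotides) held 119 and 95.1 counts at 2W, 63.6 and 103 at 6W, and 47.5 and 71.7 at 3M. The share of Igha counts on the shorter transcript was therefore 51.0% to 55.5% at 2W, 94.6% to 96.4% at 6W and 97.8% to 98.0% at 3M. For Ighm the shorter transcript (1602 nucleotides) held 3959 and 3120 counts at 2W, 7867 and 7571 at 6W, and 8390 and 10348 at 3M. The longer Ighm transcript (1823 nucleotides) was at 74.1 and 62.7 FPKM at 2W, 105 and 99.5 FPKM at 6W, and 74.7 and 81.8 FPKM at 3M. This longer transcript was highest in both 6W libraries, as Cd79a was. Ighg2b, outside the members, had the same layout, with 36.2% and 26.1% of its counts on the shorter transcript at 2W and 93.6% and 91.8% at 3M. Heavy chain genes make a membrane form for the B cell receptor and a secreted form by alternative ends of the transcript. The table does not say which transcript is which form, and the split between overlapping transcripts was estimated by the authors' program, so its error is not known.

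**Figure D2:**
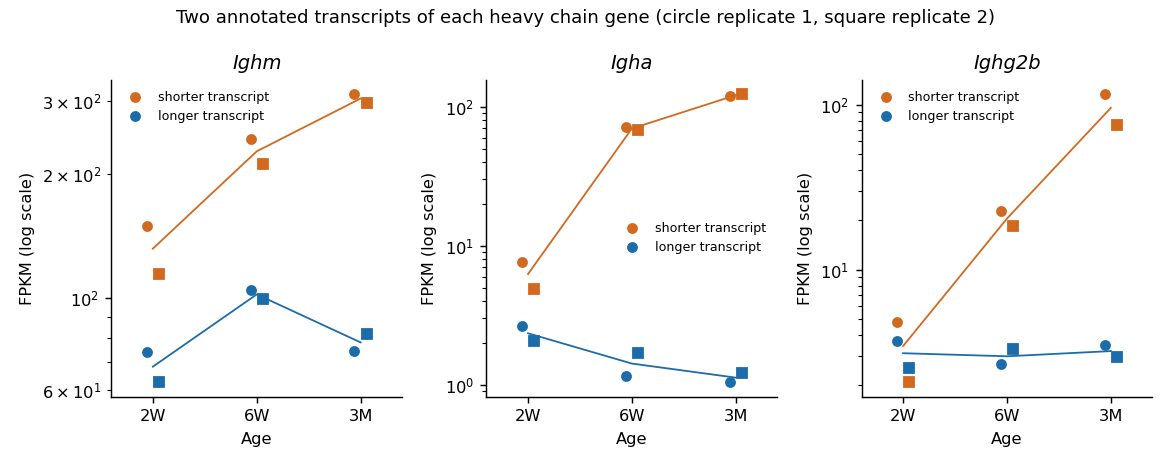
FPKM (log axes) of the shorter (orange) and longer (blue) annotated transcript of Ighm, Igha and Ighg2b in each library, with lines joining the means of 2 libraries. The shorter Igha transcript goes from 7.58 and 4.92 FPKM at 2W to 119 and 123 FPKM at 3M, whereas the longer stays below 2.7 FPKM in all libraries.

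As a share of all heavy chain constant region counts (Ighm, Ighd, Ighg1, Ighg2b, Ighg2c, Ighg3, Ighe and Igha), Ighm held 89.8% and 91.3% at 2W, 79.7% and 78.4% at 6W, and 62.3% and 68.9% at 3M. The Igha share was 3.87% and 3.50% at 2W, 11.9% and 12.9% at 6W, and 14.1% and 16.4% at 3M. The Ighg2b share was 3.81% and 2.90% at 2W, 4.71% and 4.67% at 6W, and 14.5% and 10.9% at 3M, above that of Igha in 3M replicate 1 and below it in replicate 2. The Ighm share was lower, and those of Igha and Ighg2b higher, in both libraries of each later age. At 2W Ighm held 6193 and 5064 counts, beside 120 and 64 for all heavy chain variable segments (Ighv). How much of the Ighm count came from messages with such a segment was not tested.

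Variable segments were counted in rows apart from those of the members, though a heavy chain message can carry both. The table listed 115 heavy chain (Ighv), 100 kappa (Igkv) and 3 lambda (Iglv) segments. Their summed counts for Ighv were 120 and 64 at 2W, 796 and 805 at 6W, and 1779 and 1863 at 3M. For Igkv the sums were 172 and 87 at 2W, 1127 and 968 at 6W, and 2132 and 2346 at 3M. Scaled to the library total (counts per 1000000 counts), Ighv sums were 5.51 ± 2.48 at 2W, 37.3 ± 2.28 at 6W and 95.7 ± 14.5 at 3M (SD, n = 2). The ages did not overlap at any of the 3 loci, but 2 libraries against 2 cannot give an exact permutation p below 0.333. The number of Ighv segments with a count was 25 to 45 at 2W and 77 to 78 at 3M, and the counts behind it also differed. The segment with the highest sum was Ighv1-64 for the heavy chain, with 7.15% of Ighv counts, Igkv10-96 for kappa, with 11.2%, and Iglv1 for lambda, with 72.0%. Ighv1-64 held 218 counts in 3M replicate 1 and 51 in replicate 2, so this segment differed more between these replicates than the Ighv sum did. Reads of near-identical segments can be split among them, so values of single segments are uncertain.

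The kappa constant region under its symbol Igkc was listed at 0 in all 6 libraries. An assembled transcript without a symbol (TCONS_00097570), described as a kappa light chain and chosen after its values were seen, held 637 and 440 counts at 2W, 4283 and 4330 at 6W, and 8578 and 8653 at 3M. It rose by a log2FC of 2.57 (SE 0.23, adjusted p = 0.020, edgeR quasi-likelihood test with Benjamini-Hochberg adjustment over all genes tested) for 6W against 2W and of 3.75 (0.24, adjusted p = 0.0039) for 3M against 2W. The call for 6W against 2W was lost without any 1 of the 4 libraries compared, with log2FCs of 2.34 to 2.89, and that for 3M against 2W was kept in all 6 such fits. For 3M against 6W its log2FC was 1.18 (SE 0.22) with an adjusted p of 0.21. An unnamed lambda-1 light chain transcript, also chosen after its values were seen, held 25 and 8 counts at 2W, 116 and 153 at 6W, and 434 and 254 at 3M. It passed the edgeR test for 3M against 2W, with an adjusted p of 0.013, but not without 2W replicate 2 (adjusted p = 0.056).

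**Figure D3:**
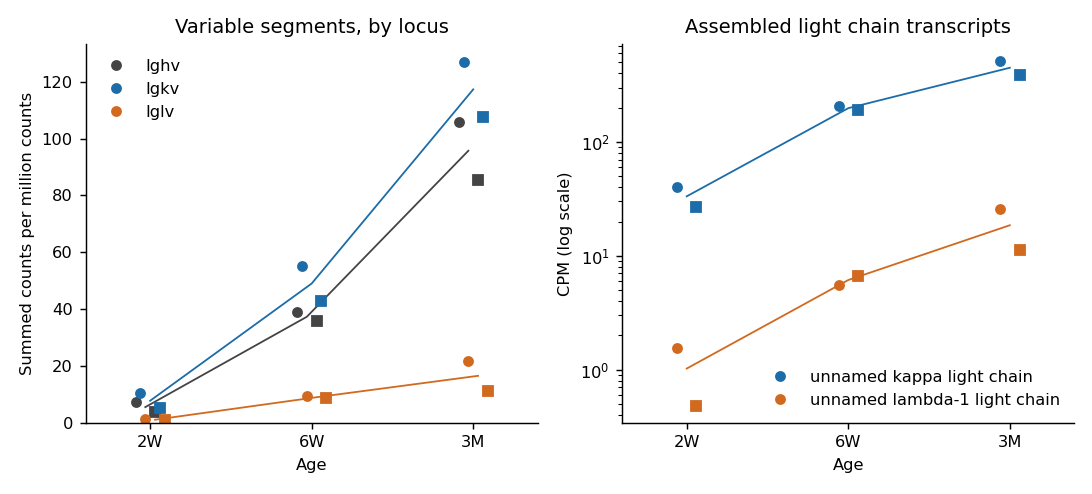
Left, summed counts of the Ighv, Igkv and Iglv segments per 1000000 counts of each library (linear axis from 0). Right, CPM of the unnamed kappa and lambda-1 light chain transcripts (log axis). Circles are replicate 1, squares replicate 2, and lines join the means of 2 libraries, which are higher at each later age in every series, with Ighv means of 5.51, 37.3 and 95.7.

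To place the members among their pathway, 79 further genes in 7 lists were examined, of which 72 had enough counts for the test. Of all 15046 genes tested, edgeR called 1.39% higher and 0.246% lower (adjusted p under 0.05) in 6W against 2W, 0% higher and 0.00665% lower in 3M against 6W, and 7.74% higher and 3.06% lower in 3M against 2W. Of the 72 B lineage genes, 7 were higher and 0 lower at 6W than at 2W, or 9.72% higher. For 3M against 2W, 16 were higher, or 22.2%, and 1 was lower. The lists were chosen with earlier results of these data known, so these shares beside those of all genes are a description. For 3M against 6W edgeR called 0 of 72, with 13 at an unadjusted p under 0.05, and DESeq2 called 4, namely Ighg2b, Ighg2c and Ighg3 higher and Fcer2a lower. The median log2FC over the 72 was 0.44, 0.02 and 0.46 for 6W against 2W, 3M against 6W and 3M against 2W, beside -0.01, 0.02 and -0.02 over all genes tested. For 6W against 2W, 0 of the 72 were called when any 1 of the 4 libraries compared was left out, or when only annotated transcripts were summed, but in these settings the calls over all genes also dropped, from 246 to between 0 and 4. For 3M against 2W the count was 2, Cd22 and Ighg2b, without either 2W library, while calls over all genes dropped from 1625 to 199 and 210.

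The immunoglobulin constant regions had the largest changes of the lists. Of 9 tested, 6 rose from 2W to 3M and 0 fell, with a median log2FC of 3.22. Ighg2b, a constant region of IgG, was at 16.5 and 9.77 CPM at 2W, 33.4 and 30.4 CPM at 6W, and 148 and 95.2 CPM at 3M. It rose by a log2FC of 3.21 (SE 0.31, edgeR adjusted p = 0.0061) for 3M against 2W. Ighg2c rose by 4.26 (0.65, adjusted p = 0.014) and Ighg3 by 4.89 (0.65, adjusted p = 0.011) on the log2 scale. Ighg1 rose by 3.45 (0.76, adjusted p = 0.037). The 3M replicates of these 3 genes were uneven, with 973 and 416 counts for Ighg2c, 224 and 123 for Ighg3, and 217 and 62 for Ighg1. Without 3M replicate 1 their log2FCs were 3.25, 4.14 and 1.97. Without either 2W library the calls of all 3 were lost, and that of Ighg1 was also lost without either 6W library. The lambda constant region Iglc1 held 3 and 5 counts at 2W, 69 and 135 at 6W, and 225 and 118 at 3M. Iglc1 rose from 2W to 6W (adjusted p = 0.046) and to 3M (adjusted p = 0.010), and Iglc2 rose in the same comparisons (adjusted p = 0.037 and 0.013). With so few counts at 2W the fitted fold of Iglc1 depends on the prior count. Ighd, the constant region of IgD found on naive B cells, had a log2FC of 1.33 with an adjusted p of 0.17 for 3M against 2W, and Ighe one of -0.69 with an adjusted p of 0.39. These constant regions lie close to each other in sequence, and reads shared between IgG genes could be divided among them.

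Of the 16 receptor and surface genes of B cells, 3 rose from 2W to 3M and 0 fell. Cd22, an inhibitory co-receptor of B cells, was at 3.26 and 2.85 CPM at 2W, 11.0 and 10.1 CPM at 6W, and 11.0 and 10.2 CPM at 3M. It rose by a log2FC of 1.79 (SE 0.18) for 6W against 2W (adjusted p = 0.024, edgeR). The log2FC for 3M against 2W was also 1.79 (0.18, edgeR adjusted p = 0.0068). With only annotated transcripts summed, the Cd22 log2FC for 6W against 2W was 2.66 and the call was lost. H2-Ob, a chain of the class II peptide loading modulator of B cells, rose by 1.10 (0.16, adjusted p = 0.039) for 6W against 2W and by 1.18 (0.17, adjusted p = 0.012) for 3M against 2W. Fcrl5, an Fc receptor-like protein of mature B cells, held 3 and 5 counts at 2W compared with 31 and 41 at 3M (adjusted p = 0.019), a call that was lost in 5 of the 6 fits without 1 library, all but that without 3M replicate 1. In this list, 15 of 16 genes had a positive log2FC for 6W against 2W, and the median was 0.81.

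The transcription factors of B cells moved less, with a median log2FC of 0.33 for 6W against 2W. Spib, which is also used by plasmacytoid dendritic cells, was at 15.6 and 14.7 CPM at 2W, 24.7 and 26.1 CPM at 6W, and 16.8 and 18.0 CPM at 3M. It rose at 6W by a log2FC of 0.74 (SE 0.12, adjusted p = 0.047, edgeR), and like Cd79a it was highest in both 6W libraries.

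Genes of plasma cell identity were led by Sdc1, Slamf7, Irf4 and Txndc5, the 4 of 11 that rose from 2W to 3M. For 3M against 2W, 9 of the 11 had a positive log2FC, and DESeq2 called 1 of the 11 lower. Sdc1 (CD138), a plasma cell surface proteoglycan that epithelial cells also carry, was at 9.46 and 10.3 CPM at 2W, 21.5 and 19.0 CPM at 6W, and 21.3 and 28.1 CPM at 3M. Sdc1 rose by a log2FC of 1.33 (SE 0.18, adjusted p = 0.011, edgeR). Slamf7 rose by 1.36 (0.17, adjusted p = 0.0091), Irf4 by 0.55 (0.11, adjusted p = 0.031) and Txndc5 by 0.44 (0.10, adjusted p = 0.044) for the same comparison. The calls of Irf4 and Txndc5 were lost when any 1 of the 6 libraries was left out. Of these, Sdc1 and Slamf7 also passed for 6W against 2W, with adjusted p of 0.048 and 0.033. Prdm1, the regulator that drives plasma cell differentiation, was at 2.94 and 3.58 CPM at 2W and 6.25 and 5.29 CPM at 3M, a log2FC of 0.82 with an adjusted p of 0.092. Tnfrsf17 (BCMA), the survival receptor of plasma cells, was close to the limit of detection, with 2 counts in each 2W library and 12 and 15 at 3M (adjusted p = 0.13).

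The secretory machinery showed little of the change seen in the immunoglobulins. Of 16 genes, 0 passed for 6W against 2W, with 6 at an unadjusted p under 0.05 and 1 called by DESeq2, Atf6, which was lower. For 3M against 2W, 2 rose. Herpud1, a component of endoplasmic reticulum degradation, was at 48.8 and 47.5 CPM at 2W, 64.4 and 63.7 CPM at 6W, and 81.7 and 98.9 CPM at 3M, and rose by a log2FC of 0.91 (SE 0.13, adjusted p = 0.012, edgeR). Hspa5, the chaperone BiP, rose by 0.49 (0.09, adjusted p = 0.025), a call lost without any 1 of the 2W and 6W libraries. The median of the list was 0.12 for 3M against 2W, compared with 3.22 for the constant regions. Most cells use these genes, so the share of plasma cells in them cannot be told from bulk RNA.

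Among 12 genes of the B cell niche and of IgA transport, Cxcl12 rose, and it was the 1 that passed in any comparison. Cxcl12, the stromal ligand that retains plasma cells and precursors through Cxcr4, was at 128 and 150 CPM at 2W, 177 and 158 CPM at 6W, and 258 and 211 CPM at 3M (log2FC 0.75, SE 0.15, adjusted p = 0.027, edgeR, for 3M against 2W). This call was lost without any 1 of the 2W and 6W libraries. Cxcr4 itself was at 331 and 316 CPM at 2W and 296 and 352 CPM at 3M. Pigr, the epithelial receptor that carries polymeric IgA across epithelium, was at 10.3 and 7.10 CPM at 2W and 8.57 and 6.00 CPM at 3M. Of the 5 B cell progenitor genes, Vpreb1, Vpreb2, Vpreb3 and Igll1 did not pass the count filter, with at most 18 counts in any library. Cd93 was the progenitor gene tested, at 30.0 and 42.2 CPM at 2W and 27.3 and 26.3 CPM at 3M (adjusted p = 0.21).

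**Figure D4:**
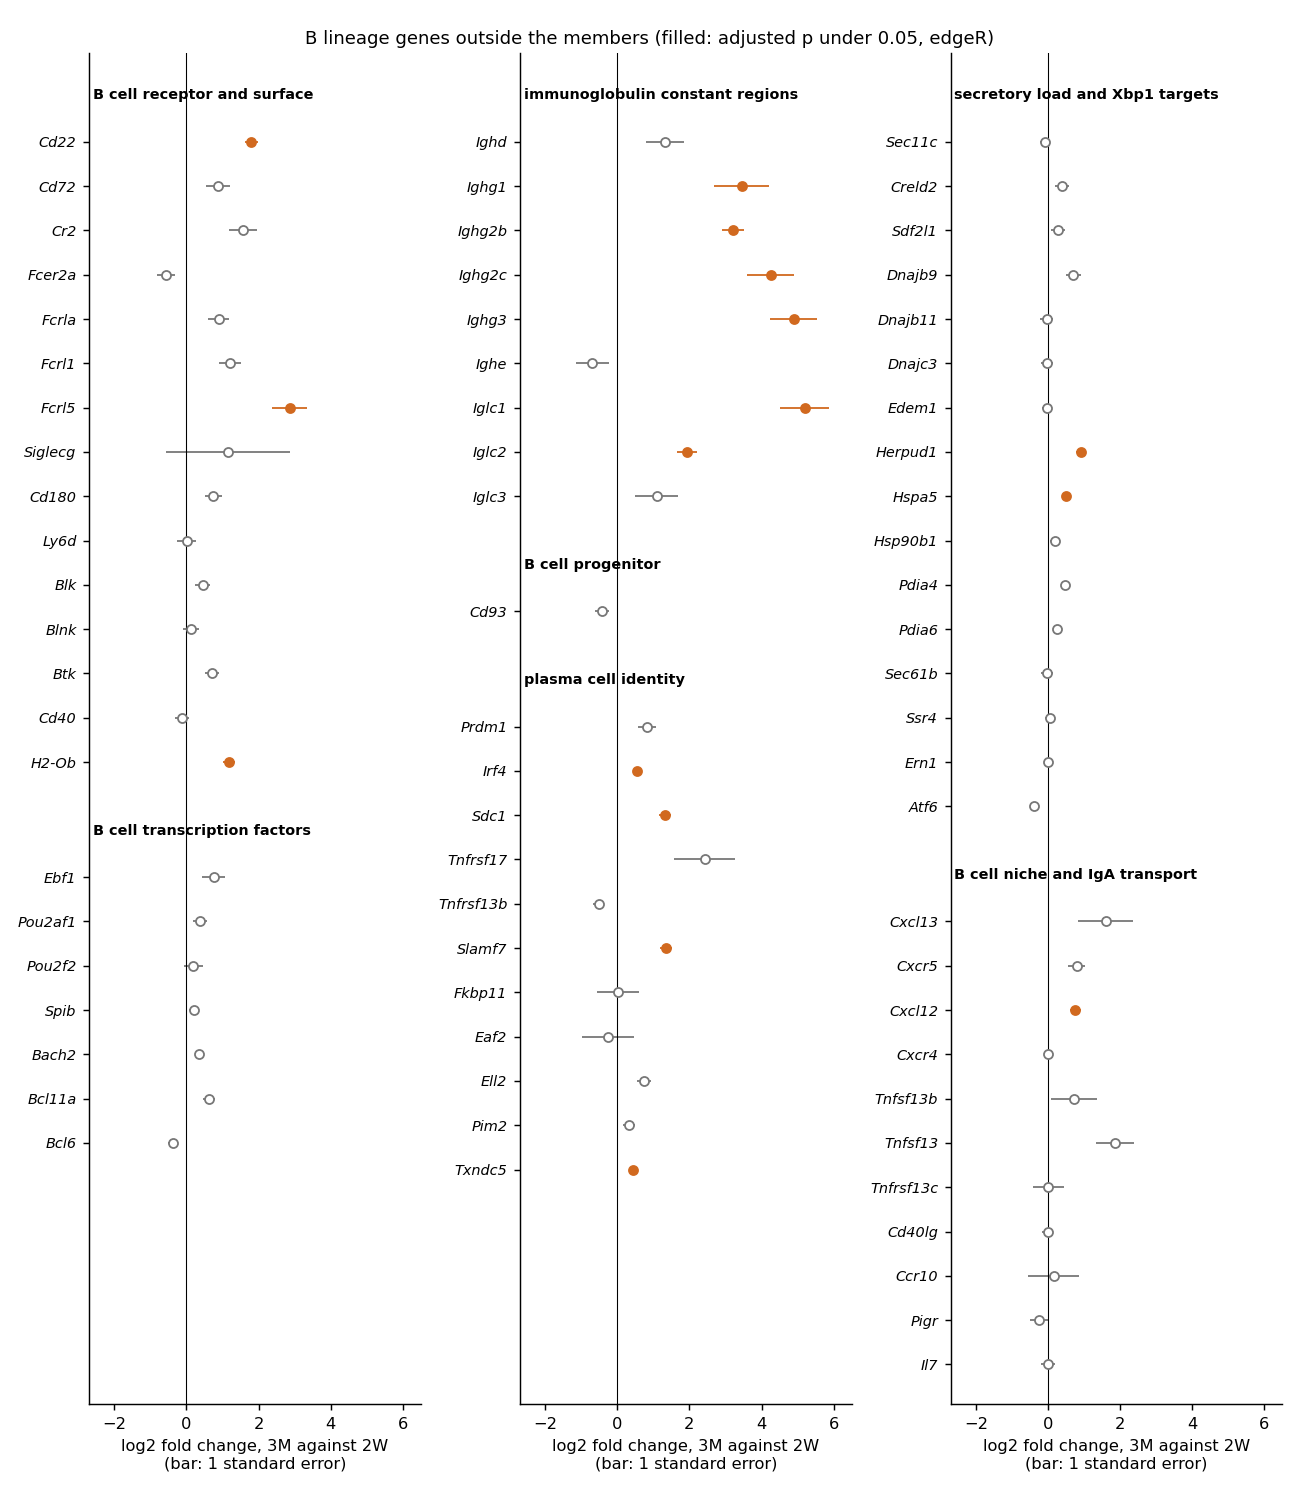
Log2 fold change for 3M against 2W (point) with 1 standard error (bar) of 70 tested B lineage genes outside the members, arranged by list, with filled orange points for an edgeR adjusted p under 0.05. The constant regions reach 5.20 for Iglc1 and most secretory genes lie near 0.

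Other cell types moved over the same ages. The summed level of 10 thymocyte genes was 16870 and 18540 CPM at 2W, 15830 and 15820 CPM at 6W, and 13740 and 13680 CPM at 3M, and 4 of the 10 fell from 2W to 3M. Those of 9 myeloid genes were 345 and 294 CPM at 2W, 703 and 656 CPM at 6W, and 680 and 714 CPM at 3M, with 5 of 9 that rose. For 6 adipocyte genes the sums were 39.3 and 39.0 CPM at 2W, 134 and 141 CPM at 6W, and 302 and 160 CPM at 3M, with 5 of 6 that rose. As with Jchain and Ighg1, adipocyte sums were higher in 3M replicate 1 than in replicate 2. Thymic epithelium genes were between 410 and 555 CPM in all libraries, with 1 of 6 called, Foxn1, which fell. Genes of lymph node stroma, a tissue that lies beside the thymus and holds B cells, summed to 127 and 90.3 CPM at 2W, 233 and 245 CPM at 6W, and 213 and 231 CPM at 3M, and Enpp2 was the 1 of 6 that rose. Most of the stroma sum was Ccl21a, at 91.3 and 49.5 CPM at 2W and 148 and 172 CPM at 6W. At 3M Ccl21a was at 115 and 154 CPM. The markers of lymph node vessels held few counts and, like Cd79a, had their highest mean at 6W. Glycam1 held 2 and 10 counts at 2W, 71 and 31 at 6W, and 15 and 2 at 3M, or up to 3.41 CPM, and its 6W libraries were above those of both other ages. Chst4 held 2 and 0 counts at 2W, 30 and 13 at 6W, and 19 and 4 at 3M. The counts of Madcam1 in the same order were 9 and 8, 10 and 33, and 2 and 6. For 6W against 2W the edgeR adjusted p was 0.25 for Glycam1, 0.21 for Chst4 and 0.52 for Madcam1. The part of these tissues in the values of the members was not tested.

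The tested genes with a pattern most like the mean of Ms4a1, Cd79a, Cd79b and Pax5 over 6 libraries were Chst3, Card19, Tapbpl, Rftn2 and Susd2, with Pearson r from 0.969 to 0.982 on log2(CPM + 0.5). Of 13643 candidate genes, 15 exceeded an r of 0.95. For the mean of Igha, Jchain and Mzb1 they were Bmp6, Nhsl2, Trim6, Stbd1 and Aldh1l1 (r from 0.963 to 0.987), a pattern set largely by the libraries where the row Jchain was 0. When Jchain and Igj were summed and Mzb1 was left out, a choice made after seeing the data, the unnamed kappa transcript was among the closest (r = 0.998). In that case 485 genes exceeded 0.95, so a steady climb with age was not particular to antibody genes. Between the members, Igha and Ighm correlated at r = 0.979, Cd79a and Cd79b at 0.682, and Igha and Mzb1 at -0.847, over 6 libraries, in which the replicates of a group share an age.

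Promoter sequence was at hand for 4 of the 9 members (RefSeq, GRCm38.p6). Those of Jchain and Cd79a are shown because these genes had different courses, highest at 3M and highest at 6W. Each is the 250 bases before the start site, 5′ to 3′ on the strand of the gene, at chr5:88527898-88528147 (minus strand) for Jchain and chr7:24897247-24897496 (plus strand) for Cd79a, and capitals mark CAGGTG.
Jchain: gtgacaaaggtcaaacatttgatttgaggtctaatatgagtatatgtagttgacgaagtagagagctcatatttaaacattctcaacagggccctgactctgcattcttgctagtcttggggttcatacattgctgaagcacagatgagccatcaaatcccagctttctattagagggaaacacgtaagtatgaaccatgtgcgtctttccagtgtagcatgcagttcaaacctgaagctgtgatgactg
Cd79a: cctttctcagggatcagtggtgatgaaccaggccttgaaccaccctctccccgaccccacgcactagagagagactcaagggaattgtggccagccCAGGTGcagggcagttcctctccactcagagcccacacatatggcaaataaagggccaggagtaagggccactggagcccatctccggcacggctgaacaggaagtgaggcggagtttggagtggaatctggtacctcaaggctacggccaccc

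Both strands of the 4 promoters, Pax5 and Xbp1 included, were searched for the octamer ATGCAAAT, the E-box CAGGTG, the EBF1 core CCCNNGGG, the endoplasmic reticulum stress element and the unfolded protein response core TGACGTG. The E-box was found from -154 to -149 in Cd79a and from -131 to -126 in Xbp1, and it occurs in 17.2% of 32851 promoters of the same length. The other motifs were not among the letters of these 4 windows, and they occur in 1.60%, 11.8%, 0.113% and 1.65% of all promoters in the order given.

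The small RNA libraries, which played no part in choosing the members, allowed a test of 12 miRNAs known from lymphocytes, with 9179970 to 10992181 counts per library over the miRNAs tested. The 5 that passed for 3M against 2W are shown with miR-181a-5p and miR-17-5p, which share a seed with 2 of them; capitals mark the seed (bases 2 to 8), and the letters are those of the deposited table.
miR-150-5p: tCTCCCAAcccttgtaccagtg
miR-34a-5p: tGGCAGTGtcttagctggttgt
miR-125b-5p: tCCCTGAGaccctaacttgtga
miR-181b-5p: aACATTCAttgctgtcggtgggtt
miR-181a-5p: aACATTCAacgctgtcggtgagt
miR-20a-5p: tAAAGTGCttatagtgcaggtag
miR-17-5p: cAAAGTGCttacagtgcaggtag

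Of all 822 miRNAs tested with edgeR, 8.64% were called in 6W against 2W, 0.852% in 3M against 6W and 29.9% in 3M against 2W, in either direction. Of the 12 lymphocyte miRNAs, 0 were called for 6W against 2W, with 4 at an unadjusted p under 0.05 and 0 by DESeq2. For 3M against 6W, 0 were called, with 3 at an unadjusted p under 0.05 and 1 by DESeq2, miR-125b-5p. For 3M against 2W, 3 rose and 2 fell, 5 of 12 beside the 29.9% of all miRNAs. miR-150-5p, a miRNA of mature B and T cells, was at 1384 and 1153 CPM at 2W, 1757 and 1526 CPM at 6W, and 2702 and 2052 CPM at 3M. It rose by a log2FC of 0.91 (SE 0.22, adjusted p = 0.012), and its ages did not overlap between 2W and 3M. miR-125b-5p, which is abundant in stem cells and stroma, was at 8389 and 7366 CPM at 2W, 12527 and 9849 CPM at 6W, and 30671 and 19900 CPM at 3M, and rose by 1.68 (0.25, adjusted p = 0.0014). miR-34a-5p rose by 0.85 (0.22, adjusted p = 0.017). The call of miR-150-5p was lost without 2W replicate 2 or 3M replicate 1 and that of miR-34a-5p without 2W replicate 1 or 3M replicate 1, while miR-125b-5p kept its call in all 6 fits without 1 library.

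miR-181b-5p was at 22091 and 25575 CPM at 2W, 16359 and 16729 CPM at 6W, and 13016 and 12611 CPM at 3M, and fell by 0.90 on the log2 scale (SE 0.18, adjusted p = 0.0060, edgeR). miR-181a-5p, which has the same seed and is a main miRNA of developing thymocytes, was the most abundant of the 12. It had a log2FC of -0.23 (0.17) and an adjusted p of 0.33. miR-20a-5p of the miR-17 cluster fell by 0.71 (0.20, adjusted p = 0.025), and its seed partner miR-17-5p had a log2FC of -0.63 with an adjusted p of 0.060. The call of miR-20a-5p was lost in 5 of the 6 fits without 1 library, all but that without 2W replicate 1, and that of miR-181b-5p was lost without 3M replicate 2. miR-155-5p, which activated B cells require, was at 358 and 437 CPM at 2W, 311 and 368 CPM at 6W, and 405 and 338 CPM at 3M. miR-148a-3p, a miRNA abundant in plasma cells, was at 9597 and 11669 CPM at 2W, 10393 and 10452 CPM at 6W, and 8432 and 10689 CPM at 3M, and the libraries of the ages overlapped. miR-148a-5p, miR-150-3p and miR-92a-3p had log2FCs of -0.37, 0.12 and -0.34 for 3M against 2W, with adjusted p of 0.21, 0.69 and 0.18. Differences between these miRNAs in their change with age were not tested.

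**Figure D5:**
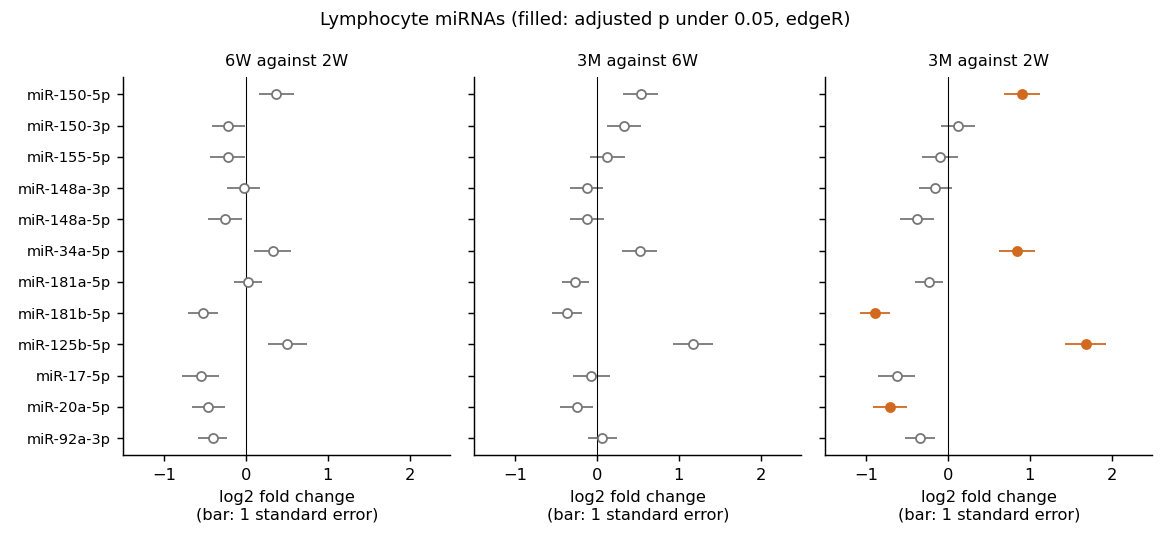
Log2 fold change (point) with 1 standard error (bar) of 12 lymphocyte miRNAs in the 3 age comparisons, with filled orange points for an edgeR adjusted p under 0.05. The 5 filled points are all in 3M against 2W, from -0.90 for miR-181b-5p to 1.68 for miR-125b-5p.

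Circular RNAs were checked for the same genes. None of the 6300 circular RNAs in the table had a member as its source gene, and 11 came from the 79 other B lineage genes, with at most 7 junction counts in any library.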

How the data were processed

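Total RNA of thymus was sequenced as ribosomal RNA depleted strand-specific libraries and as small RNA libraries, with 2 biological replicates per age. For 77525 transcripts the authors deposited an estimated count and an FPKM value per library. For circular RNAs they deposited a junction count and its RPM, and for miRNAs a tag count and its TPM. The submitters' processing notes list Bowtie 0.12.2 and mm8 with no role, and the program behind the estimated counts is not given in the sources used here. Estimated counts were rounded and summed by symbol, without regard to case, to 23215 genes. Members and lists were chosen with earlier results of these data known. edgeR 4.0.16 (R 4.3.3) was fitted to all 6 libraries of a kind by age, with filterByExpr, TMM and the quasi-likelihood test, and p-values were Benjamini-Hochberg adjusted over the 15046 genes or 822 miRNAs tested. CPM are TMM-scaled, and the RPM and TPM were not used in tests. Levels between genes are compared in summed FPKM. Simulated 4-fold changes in 200 features for 6W against 2W were recovered at 93% (14795 genes) and 98.5% (784 miRNAs). False calls numbered 20 for genes and 3 for miRNAs, and smaller changes were not simulated. Named were all members, list genes with an adjusted p under 0.05 in any comparison or else the 2 highest of a list, the 5 genes most correlated with the members (mean CPM of at least 1), the top variable segment per locus and all listed miRNAs. Further genes were named for their role after their values were seen. Alternatives were DESeq2 1.42.0, total-count scaling, no filter, 4 libraries, a replicate block, symbols as written, annotated transcripts only, immunoglobulin rows left out, and each library left out. Counting intervals are not given, and the number of replicates limits the precision. The lncRNA table was not used here. Of the list genes tested, 2 entered the counts, and their own values are not reported here.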

Additional observations from a re-analysis of the deposited data

How the results depend on the processing

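The count of B lineage genes called in 6W against 2W (7 of 72) was 13 with DESeq2, 11 with the 4 libraries compared, 3 with symbols as written and 0 with annotated transcripts only. It was 0 without any 1 of the 4 libraries compared and 12 without either 3M library, a range of 0 to 12 in which a lone library is assumed to vary like the other ages. For 3M against 6W it was 4 with DESeq2 and 1, Ighg2b, with no filter, and 0 with each library left out. For 3M against 2W (17) it was 11 with the 4 libraries compared and 11 of 63 without immunoglobulin rows, where fewer genes could be called. It was 2 without either 2W library, 10 without either 6W library, 16 without 3M replicate 1 and 20 without 3M replicate 2, the library high in red blood cell genes. Lymphocyte miRNAs called in 3M against 6W numbered 1 with DESeq2 and with no filter, and 0 to 1 with a library left out. In 3M against 2W they numbered 2 without 3M replicate 1, 3 without 3M replicate 2 or 2W replicate 2, and up to 5 otherwise. Where no smaller set of genes or libraries explains a count, the cause was not tested.

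The differences between replicates correlated across ages at -0.04, -0.17 and 0.31 for genes. For miRNAs they correlated at 0.22, -0.15 and -0.07. The pairs of ages were 2W and 6W, 2W and 3M, and 6W and 3M. These values cannot tell whether libraries of the same replicate number belong together. With the replicate number as a block, edgeR called 0, 0 and 11 B lineage genes and 0, 1 and 5 lymphocyte miRNAs in 6W against 2W, 3M against 6W and 3M against 2W. Of 237 member values under the settings other than those that left out 1 library, 232 moved by less than the spread between replicates. The other 5 were Igha for 3M against 6W, from 0.75 to 0.79 where its replicates nearly coincide, and Jchain joined with Igj. No called result turned its direction. Fitted folds of the row Jchain alone are not given, since libraries at 0 set them. The joining of Igj, and the alternatives for Igj and the light chain transcripts, were added after seeing the data. Under total-count scaling the median of all genes shifted by under 0.1 in log2 units.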
